A study of Mus musculus with 4 samples.

Results

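Voltage-gated potassium channels and their auxiliary subunits were described in ribosome footprint libraries of mouse dorsal root ganglia. The members are the 52 genes of the deposited table, of 48431 in all, whose symbol starts with Kcn, goes on with the letters a, b, c, d, f, g, h, q, s, v, ab, e or ip, and ends in a number, with at most 1 letter after it. Of these, 40 encode pore-forming subunits, 3 encode Kv beta subunits, 4 encode KChIPs and 5 encode KCNE subunits. Dorsal root ganglia hold the cell bodies of the sensory neurons that report touch, position, temperature, itch and pain, together with satellite glia and Schwann cells. All 4 libraries belong to 1 group: male wild-type SW mice that, per the treatment label, received methylglyoxal (MGO), a reactive by-product of sugar breakdown, by the intraperitoneal route at 2 mg/kg for 6 days. The treatment protocol attached to them names saline instead, in contradiction to the label, and no control library was analysed here. The labels give neither the age of the mice nor whether animals were pooled.

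Voltage-gated potassium channels open when a neuron is depolarised and let potassium leave, which ends the action potential and sets how easily and how often the neuron fires. A channel is built from pore-forming alpha subunits, and most families mix freely only within themselves. Kv1 channels open near threshold and line the axon beside the node of Ranvier, Kv2 and Kv3 channels repolarise the spike, Kv4 channels carry a fast inactivating current, and Kv7 channels carry the M-current, a slow brake on repeated firing. Modifier subunits do not form channels alone but join Kv2, whereas beta subunits, KChIPs and KCNE proteins attach to a pore and change its gating or its way to the membrane.

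Each alpha subunit carries in its pore a short stretch that selects potassium over sodium. The coding sequences of this selectivity filter are shown for 8 of the alpha subunits described, because they show how far a footprint of 28 to 34 nt can tell these paralogs apart. Capitals mark the 15 bases of the 5 filter codons within a window of 30 coding bases, 5′ to 3′ on the coding strand (GENCODE M21 transcripts, GRCm38).
Kcna1: atgaccACTGTGGGATACGGTgacatgtac
Kcna2: atgacaACTGTAGGCTATGGAgacatggtt
Kcnd1: atgaccACACTTGGGTATGGAgatatggta
Kcnd3: atgactACACTGGGATATGGAgacatggtg
Kcnb2: atgaccACTGTGGGCTACGGTgacatttac
Kcnh6: ctcactAGTGTGGGCTTCGGCaatgtgtca
Kcnh2: ctcaccAGCGTGGGCTTTGGCaatgtctct
Kcnc1: atgacgACACTGGGCTATGGAgacatgtat
The windows lie in coding exons at chr6:126642219-126642248 (minus strand) for Kcna1 and chr3:107105218-107105247 (plus strand) for Kcna2. Those of Kcnb2, Kcnh6 and Kcnh2 lie at chr1:15710040-15710069 (plus), chr11:106019070-106019099 (plus) and chr5:24325546-24325575 (minus). That of Kcnc1 lies at chr7:46427967-46427996 (plus). The windows of Kcnd1 and Kcnd3 are joined across a splice junction. Over 741 pairs of 39 alpha subunits the windows differed by a median of 10 and at most 17 bases, and in 1 pair they were identical. Kcna1 and Kcna2 differed at 8 of the 30 bases, Kcnd1 and Kcnd3 at 5, Kcnh2 and Kcnh6 at 5, and Kcna1 and Kcnb2, which belong to different families, at 2.

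Over whole coding sequences the genes were mostly distinct at footprint length. Of the 52 members, 28 had no window of 28 coding bases in an annotated transcript of another gene, 12 had under 1% of their windows there, 9 had 1% to 10% and 3 had more. Among those 3 were Kcna6, with all of its 1560 windows inside the antisense gene Gm26673, and Kcnip4, with 16.3% shared with 5730480H06Rik. Annotated exons of another gene overlapped those of 14 members. Whether the counting used strand is not given in the sources used here, so reads of such overlapping genes cannot be told apart.

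The libraries held 3487635, 2633870, 2610537 and 3753014 reads in replicates 1 to 4 as estimated from the step between low values. The unit is CPM, footprint reads of a gene for each 1000000 in its library with no division by length, although the columns are named for TPM. Replicates 1 and 2 differed by little more than sampling noise, with a chi-square per degree of freedom of 1.03, and replicates 3 and 4 likewise, with 1.05. Across the pairs it was 3.18 to 3.89. For this reason a pair counts as 1 sample, and a mean ± SD is taken over 2 pair means (n = 2). Such an SD can be much smaller than the spread over the 4 libraries. Separate animals or cultures are not named for the replicates, so SDs and p-values may measure technical spread. Markers of the ganglion were present in all libraries: Tubb3, a neuronal tubulin, stood at 1745, 1789, 1818 and 1793 CPM and 10 Schwann cell markers, all detected, summed to 21352, 21425, 26149 and 26205 CPM. In whole ganglia, fewer cells of a type and fewer footprints per cell cannot be told apart.

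A mean of at least 1 CPM, called detected here, was reached by 41 of the 52 members, against 31.6% of all symbols in the table and 63.8% of protein-coding ones. Of the detected members, 4 had a mean above 100 CPM, 22 lay between 10 and 100 and 15 between 1 and 10. All members together held 1609, 1614, 1724 and 1808 CPM in the 4 libraries, and the 5 highest as listed, Kcna1, Kcnab2, Kcnd1, Kcna2 and Kcnab1, held 58.5% of this. Counted together with its antisense gene Gm26673, Kcna6 would stand at 98.9 CPM, above Kcnab1 at 90.1 CPM. The spread over libraries was close to that of other genes of like level: the median coefficient of variation over 4 libraries was 6.03% for members above 100 CPM, against 6.06% for all genes of 100 to 1000 CPM, and 10.8% for members of 10 to 100 CPM, against 11.8% for all such genes.

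**Figure D1:**
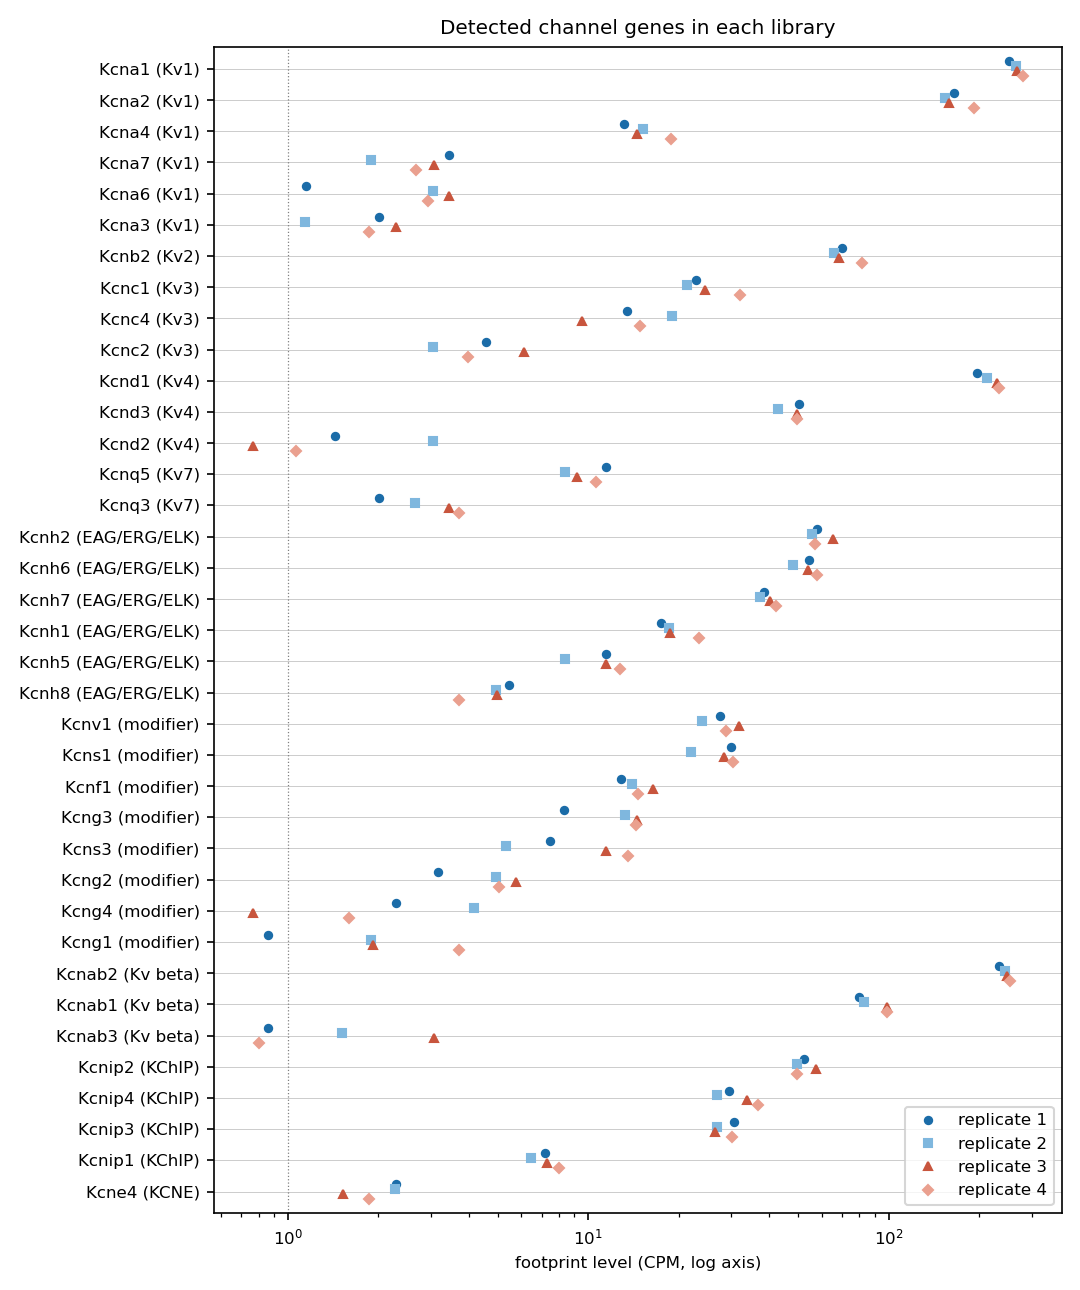
Footprint level (CPM, logarithmic axis, not divided by gene length) of 37 of the 41 detected channel genes, grouped by family; each symbol is 1 library of methylglyoxal-treated mice and the dotted line marks 1 CPM. Kcna1, Kcnab2, Kcnd1 and Kcna2 lie above 100 CPM in all 4 libraries, and scatter between libraries grows toward the low end.

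Levels between genes were compared as CPM per kb of coding length. Kv1 alpha subunits and Kv beta subunits led, with family sums of 305 ± 16.6 CPM per kb and 289.7 ± 18.5 CPM per kb, which are 27.5% and 26.1% of the sum over all members. KChIPs followed with 151 ± 9.1 CPM per kb and Kv4 subunits with 137 ± 9.997 CPM per kb. The 10 modifier subunits held 69.5 ± 9.87 CPM per kb, the 8 EAG, ERG and ELK subunits 58.6 ± 3.88 CPM per kb, Kv2 36.4 ± 2.7 CPM per kb, Kv3 31.6 ± 0.592 CPM per kb and Kv7 22.5 ± 1.003 CPM per kb. KCNE subunits came last with 7.66 ± 3.25 CPM per kb. In several families 1 gene carried the larger part of the sum as listed: Kcnd1 gave 81.5% of Kv4, Kcnab2 gave 73.7% of Kv beta, Kcna1 gave 58.9% of Kv1 and Kcne4 gave 51.0% of KCNE. Kv1 sums and shares here take Kcna6 as listed. Counted together with its antisense gene Gm26673, Kcna6 would stand at 62.3 CPM per kb, and the Kcna1 share would be smaller. Summed Kv1 exceeded summed Kv4 2.22-fold, summed Kv2 8.37-fold and summed Kv7 13.5-fold, each in 4 of 4 libraries. On the log2 scale the excess over Kv2 was 3.07 per kb and 2.23 without division by length, and that over Kv7 was 3.75 per kb and 3.06 without it.

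Among the Kv1 subunits, Kcna1 and Kcna2, the subunits of the channel beside the node, had the highest listed levels. Kcna1 (chromosome 6, 126640397 to 126646384) had 252, 266, 267 and 281 CPM in replicates 1 to 4, or 179.6 ± 7.12 CPM per kb. Kcna2 (chromosome 3, 107101146 to 107115005) had 165, 155, 159 and 192 CPM, or 112 ± 7.48 CPM per kb, and was highest in replicate 4. Kcna1 stood above 96.4% and Kcna2 above 93.4% of detected coding genes per kb. Kcna2 lay below Kcna1 in 4 of 4 libraries, by a log2 difference of -0.68 ± 0.04, which makes Kcna1 1.61-fold higher; per kb of total exon length the difference was -1.98. Contrasts within libraries were tested by exact permutation of their signs over 4 libraries, two-sided, which cannot give a p below 0.125. This takes the 4 libraries as independent, and with each pair as 1 sample the smallest permutation p would be 0.5. Of the 21 contrasts computed, 17 are reported. The 20 contrasts with the same direction in all 4 libraries had that p, with a permutation p of 0.131 after Benjamini-Hochberg adjustment over 21 contrasts, so none was called significant.

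Kcna4, which encodes a fast inactivating Kv1 subunit known from small sensory neurons, had 13.2, 15.2, 14.6 and 18.9 CPM. Per kb it stood at 7.88 ± 0.919 CPM per kb, and Kcna2 exceeded it 14.1-fold in 4 of 4 libraries, by 3.82 ± 0.07 on the log2 scale, or 2.11 with total exon length. Kcna6, another neuronal Kv1 subunit, was listed at only 1.15, 3.04, 3.45 and 2.93 CPM. Gm26673, whose exons run over the whole coding sequence of Kcna6 on the opposite strand, had 94.9, 87.3, 102 and 101 CPM. Taking both together as Kcna6 gave 98.9 ± 8.08 CPM, or 62.3 ± 5.09 per kb. The excess of Kcna1 over Kcna6 was 6.77 ± 0.44 on the log2 scale as listed and 1.53 ± 0.06 with both, an alternative chosen after seeing the data. The level of Kcna6 is therefore uncertain.

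The other Kv1 genes were low. Kcna7, known from skeletal and heart muscle, had 2.77 ± 0.138 CPM, and Kcna3, known from lymphocytes and microglia, 1.83 ± 0.36 CPM. Skeletal muscle genes were present, with all 11 listed markers detected and a summed level of 4031, 4095, 2443 and 2437 CPM in the 4 libraries. Their part in the reads of Kcna7 was not tested. Kcna5, of vascular muscle and heart, and Kcna10 stood below 1 CPM with 10 and 4 reads over the 4 libraries.

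Kv beta subunits, cytoplasmic proteins with the fold of an aldo-keto reductase that bind Kv1 channels and guide them to the axon, included the member with the highest level per kb. Kcnab2 (chromosome 4, 152390742 to 152477871) had 233, 243, 247 and 255 CPM and, with 214 ± 7.83 CPM per kb, was the first of all 52 members per kb. This rank depends on division by coding length: without it, Kcna1 stood higher, with 252, 266, 267 and 281 CPM. The values of Kcnab2 were not whole reads in replicates 1, 3 and 4, and an annotated processed transcript, Gm16334, overlaps it on the same strand with 2.7 CPM. Kcnab1 had 79.7, 83.1, 98.8 and 98.9 CPM, with both libraries of the second pair above both of the first. Kcnab2 exceeded Kcnab1 2.86-fold per kb in 4 of 4 libraries, a log2 difference of 1.52 ± 0.14. Kcnab3 was close to the minimum at 1.56 ± 0.525 CPM and ranged from 0.799 to 3.06 CPM. Summed Kv beta and summed Kv1 alpha subunits differed by -0.07 ± 0.02 on the log2 scale, with beta subunits higher in 1 of 4 libraries (p = 0.25 by exact permutation of signs). Single libraries ranged from -0.13 to 0.002. Beta subunits were lower in 4 of 4 libraries under other scalings: the difference was -0.45 without division by length, -0.47 with total exon length, and -0.34 ± 0.01 with the antisense reads counted as Kcna6.

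**Figure D2:**
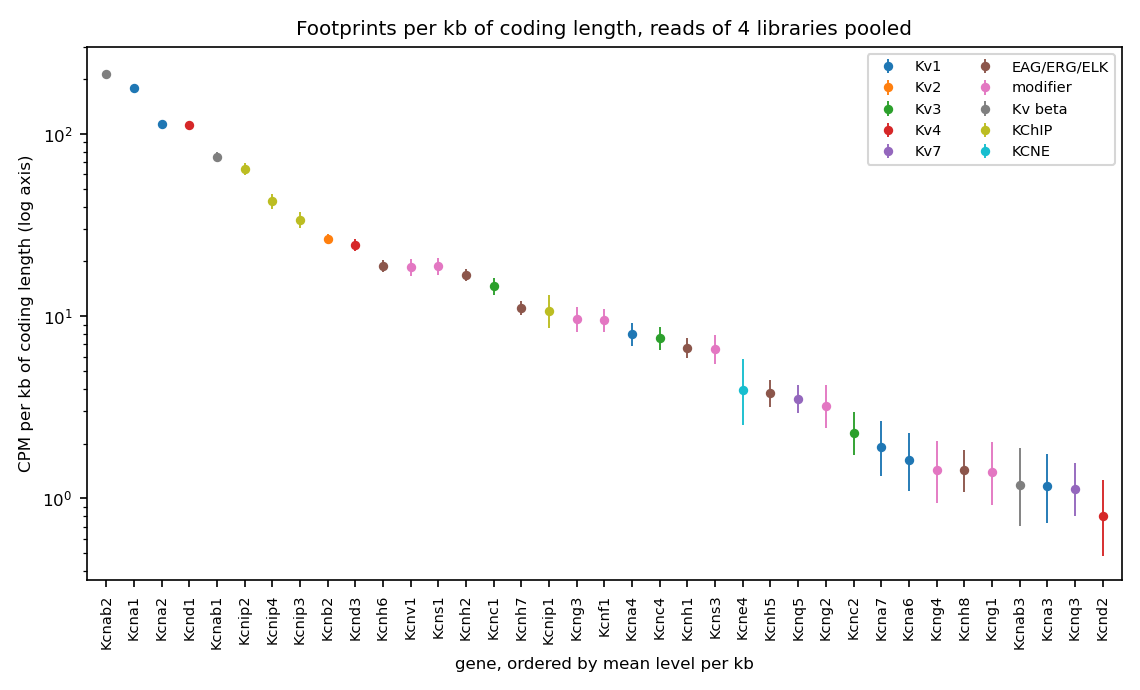
CPM per kb of coding length (logarithmic axis) of 37 of the 41 detected channel genes in order of their mean, coloured by family; points are the reads of the 4 libraries pooled and bars are exact Poisson 95% intervals, which cover counting error only. Kcnab2 at 214 and Kcna1 at 179.6 stand apart at the top, and most neighbours from Kcnh6 down have overlapping intervals.

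Kv4 channels carry the A-type current that delays the next spike, and their footprints were mostly those of Kcnd1. Kcnd1 (chromosome X, 7822289 to 7838280) had 197, 213, 229 and 234 CPM, or 112 ± 9.48 CPM per kb, so it stood beside Kcna2 per kb: Kcna2 was higher in 2 of 4 libraries and their counting intervals overlapped (109 to 118 for Kcna2 and 108 to 116 for Kcnd1). This holds for coding length only. Without division by length Kcnd1 was higher, with 218 ± 18.5 CPM against 168 ± 11.2 CPM for Kcna2. Total exon length, 5287 bases in Kcnd1 and 11906 in Kcna2, would widen that difference. Kcnd3 (chromosome 3, 105452330 to 105674002) had 50.5, 42.9, 49.4 and 49.6 CPM, close together except for a lower replicate 2. It lay below Kcnd1 in 4 of 4 libraries, with a log2 difference of -2.19 ± 0.06, which makes Kcnd1 4.55-fold higher per kb; with total exon length the difference was -3.02. Kcnd2, the main Kv4 gene of many brain neurons, was low, with 1.43, 3.04, 0.766 and 1.07 CPM. Those values rest on 19 reads in all, and Kcnd3 exceeded Kcnd2 29.3-fold per kb, by 4.87 ± 0.81 on the log2 scale, in 4 of 4 libraries, or by 3.76 with total exon length.

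KChIPs are calcium-binding proteins that attach to the Kv4 amino terminus and raise its surface level. Kcnip2 was the highest with 52.5, 49.7, 57.5 and 49.6 CPM, or 64.6 ± 2.1 CPM per kb. Kcnip4 had 29.5, 26.96, 33.7 and 36.8 CPM (42.3 ± 6.6 CPM per kb) and was higher in both libraries of the second pair. A part of its coding windows is shared with 5730480H06Rik, which had 8.24 CPM. Kcnip3, whose protein is also known as the transcriptional repressor DREAM, had 30.7, 26.96, 26.4 and 30.1 CPM (33.5 ± 0.455 CPM per kb), with no order between the pairs. It lay below Kcnip2 in 4 of 4 libraries, with a log2 difference per kb of -0.95 ± 0.06. Kcnip1 was the lowest KChIP, with 7.17, 6.45, 7.28 and 7.99 CPM, and lay below Kcnip4 in 4 of 4 libraries, with a log2 difference per kb of -1.98 ± 0.11, or -2.80 with total exon length. Summed KChIPs exceeded summed Kv4 alpha subunits by 0.14 ± 0.02 on the log2 scale in 4 of 4 libraries. Replicates 1 to 4 gave 0.24, 0.06, 0.14 and 0.11. The difference turned to -1.16 without division by length and to -0.50 with total exon length. The DPP proteins, the other attached subunits of Kv4, stood at 239.6 ± 9.72 CPM per kb for Dpp6 and 76.7 ± 6.66 CPM per kb for Dpp10.

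Kv2 channels are slow delayed rectifiers of the cell body and also hold the plasma membrane to the endoplasmic reticulum. Kcnb2 had 69.96, 65.7, 68.6 and 81.8 CPM and was highest in replicate 4, or 26.3 ± 1.91 CPM per kb. Amigo1, a membrane protein that binds Kv2, had 56.3 ± 6.75 CPM.

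Modifier subunits together exceeded the Kv2 subunits they join by 0.93 ± 0.10 on the log2 scale per kb of coding length in 4 of 4 libraries. Without division by length the difference was 0.06 and did not go the same way in all libraries (p = 0.375 by exact permutation of signs), and with total exon length it was 2.03. Kcnv1, which lowers Kv2 currents, had 27.5, 23.9, 31.8 and 28.8 CPM, and Kcns1, a subunit known from large sensory neurons, 29.8, 22.02, 28.3 and 30.4 CPM. Per kb both stood at about the same level, 18.6 ± 2.14 CPM per kb and 18.5 ± 1.63 CPM per kb, with Kcnv1 higher in 2 of 4 libraries. Kcns3 had 7.45, 5.32, 11.5 and 13.6 CPM, with both libraries of the second pair above both of the first. Kcns1 exceeded Kcns3 3.02-fold per kb, by 1.96 and 2.00 on the log2 scale in replicates 1 and 2, and by 1.27 and 1.13 in replicates 3 and 4. Kcnf1 and Kcng3 had 14.5 ± 1.48 CPM and 12.6 ± 2.6 CPM, and Kcng2, Kcng4 and Kcng1 lay between 2.1 and 4.72 CPM. Kcns2 had 11 reads in all, and Kcnv2, a photoreceptor subunit, had none.

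The EAG, ERG and ELK subunits, relatives with a cyclic nucleotide-binding-like domain, were led by ERG genes. Kcnh2, the ERG1 gene whose loss prolongs the cardiac action potential, had 57.9, 55.4, 65.5 and 56.8 CPM, and Kcnh6, the ERG2 gene, 54.2, 48.2, 54.01 and 57.8 CPM. Per kb, Kcnh6 stood at 18.8 ± 1.17 CPM per kb and Kcnh2 at 16.9 ± 0.903 CPM per kb, with overlapping counting intervals (17.5 to 20.4 for Kcnh6 and 15.6 to 18.1 for Kcnh2), although Kcnh6 was higher in 4 of 4 libraries. The ERG3 gene Kcnh7 had 38.4, 37.2, 40.2 and 42.1 CPM (11.01 ± 0.66 CPM per kb). Kcnh2 exceeded Kcnh7 by 0.61 ± 0.01 on the log2 scale per kb in 4 of 4 libraries, or by 2.18 with total exon length. Single libraries ranged from 0.47 to 0.74 per kb of coding length. Exons of the protein-coding gene Gca, which had 12.7 CPM, overlap those of Kcnh7 on the opposite strand. Kcnh2 is also a heart gene. Of 7 heart muscle markers 4 were detected, and the list summed to 43.9, 42.4, 15.7 and 17.4 CPM in the 4 libraries, with Myl7, Nppa and Tnnt2 not detected. The part of heart muscle in the reads of Kcnh2 was not tested. The EAG genes Kcnh1 and Kcnh5 had 19.6 ± 2.17 CPM and 11.03 ± 1.58 CPM, and the ELK gene Kcnh8 4.77 ± 0.592 CPM. Kcnh3 and Kcnh4 had 3 reads and 1 read in all.

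Summed Kv3 and summed Kv7 genes were lower per kb than the summed EAG, ERG and ELK genes. Kcnc1, a Kv3 gene of fast-spiking neurons, had 22.9, 21.3, 24.5 and 31.97 CPM (14.3 ± 2.48 CPM per kb) and was highest in replicate 4. Kcnc4 had 13.5, 18.98, 9.58 and 14.9 CPM, or 7.56 ± 1.49 CPM per kb, and was lowest in replicate 3. It lay below Kcnc1 in 4 of 4 libraries, with a log2 difference per kb of -0.94 ± 0.53. With total exon length in place of coding length the difference turned to 0.50. Coding sequence makes up 1755 of 9458 exon bases in Kcnc1 and 1884 of 3667 in Kcnc4. Kcnc2 was lower at 4.44 ± 0.884 CPM.

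Of the Kv7 genes, Kcnq5 had 11.5, 8.35, 9.19 and 10.7 CPM, or 3.47 ± 0.00369 CPM per kb, although single libraries ranged from 2.92 to 4.02 CPM per kb. Kcnq3, a subunit of the M-channel, had 2.01, 2.66, 3.45 and 3.73 CPM, or 1.13 ± 0.339 CPM per kb, and both libraries of the second pair lay above both of the first. Per kb, Kcnq5 was higher than Kcnq3 in 4 of 4 libraries, which was not among the contrasts tested. Kcnq1, the Kv7 gene of heart and epithelia, had 7 reads in all and shares exonic sequence with its antisense transcript Kcnq1ot1.

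KCNE proteins are small single-pass subunits, best known with Kcnq1 and Kcnh2 in heart and epithelia. Only Kcne4 was detected, with 2.29, 2.28, 1.53 and 1.87 CPM and 25 reads in all. Kcne2, second per kb, had 0.573, 1.14, 0.383 and 0 CPM from 6 reads, Kcne1l and Kcne3 had 7 and 4 reads, and Kcne1 had none. In a single library, a count of 0 reads allows up to 0.860, 1.14, 1.15 and 0.799 CPM in replicates 1 to 4. With the 4 libraries pooled, the exact Poisson upper limit was 3.69 reads for both Kcne1 and Kcnv2. Per kb this limit was 0.763 CPM for Kcne1 and 0.175 CPM for Kcnv2. Kcnab3, the detected member with the lowest mean, had 18 reads in all. The pooled depth therefore placed Kcne1 and Kcnv2 below the minimum of 1 CPM, as far as counting error goes.

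**Figure D3:**
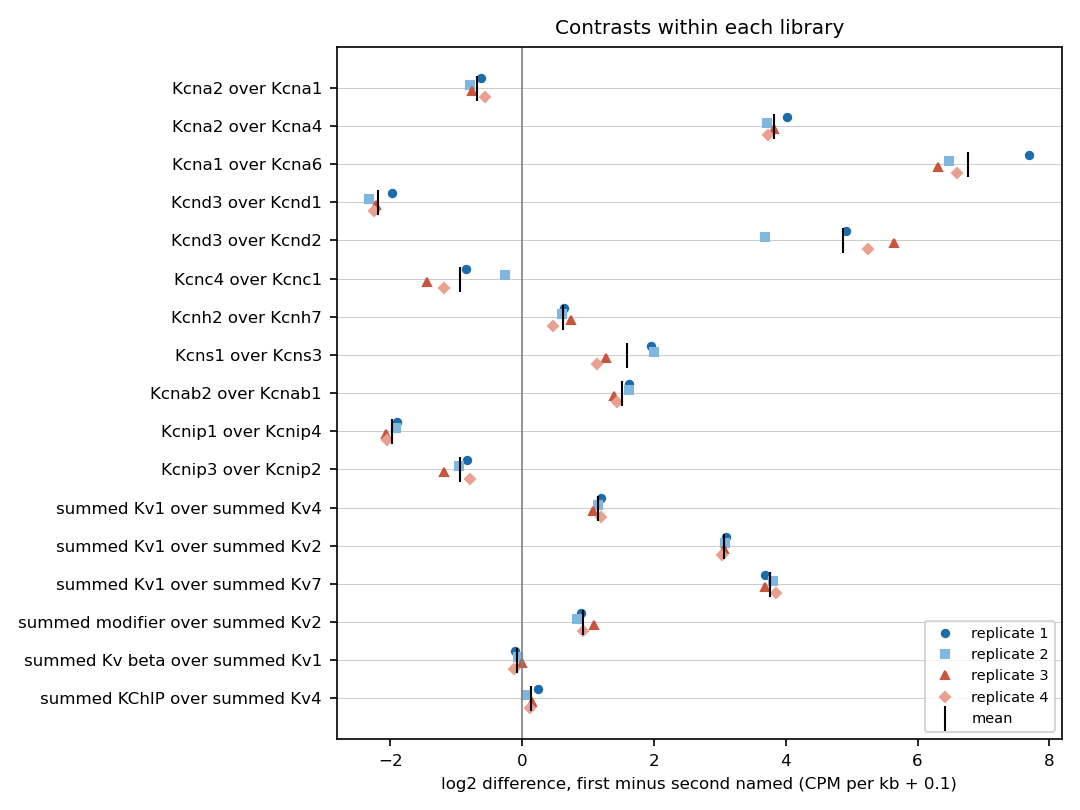
Within-library contrasts between genes and between family sums, as log2 difference of CPM per kb of coding length with a pseudocount of 0.1; symbols are libraries and black bars their mean. Of the 17 contrasts shown, the first-named side is higher in all 4 libraries in 11 and the second-named side in 5, and summed Kv beta over summed Kv1 is split.

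Across the order per kb, 42 of the 51 pairs of neighbouring genes had overlapping counting intervals. The separate steps lay near the top: Kcnab2 above Kcna1, Kcna1 above Kcna2, Kcnd1 above Kcnab1, then down to Kcnip2, Kcnip4, Kcnip3 and Kcnb2. Below these, Kcnd3 was separate from Kcnh6 and Kcnc1 from Kcnh7. From Kcnh6 to Kcnc1, at 18.8 to 14.3 CPM per kb, and from Kcnh7 down to Kcnd2, the counting intervals of all neighbours overlapped.

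Other proteins known to anchor, move or modulate these channels were also occupied. All 26 listed partners were detected, and 7 of them had more CPM than any member, without division by length. Of the proteins that hold Kv1 channels beside the node, Cntn2 had 505, 517, 577 and 577 CPM and Cntnap2, the Caspr2 gene, 309.95, 281, 286 and 311 CPM. Per kb these are 174 ± 14.9 CPM per kb and 74.3 ± 0.524 CPM per kb, against 179.6 for Kcna1. Ank2, a membrane skeleton anchor, was the highest partner in CPM at 1484 ± 52.5 CPM. Per kb, however, it stood below Kcna1, at 126 ± 4.46 CPM per kb. Akap5, an anchor of kinases at Kv7 channels, was the lowest partner in CPM at 1.28 ± 0.542 CPM. Cntnap2, Dpp10 and Amigo1 were chosen for their role after their values were seen.

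Between the 2 library pairs, which are not groups of the study, the members leaned one way. In 3 of the 41 detected members, Kcng4, Kcne4 and Kcnd2, both first-pair libraries (replicates 1 and 2) lay above both second-pair libraries, against 23.4% of all 15271 detected genes. In 19 members both second-pair libraries (replicates 3 and 4) were above, against 24.6% of all genes. No test was made of this. The log2 difference, first pair minus second, had a median of -0.15 over the members and 0.00 over all detected genes, and was below 0 in 34 of 41 members, against 49.5% of all genes. A difference of at least 0.5 with the first pair higher was reached by 2 members, Kcng4 and Kcnd2, against 7.56% of all genes. With the second pair higher it was reached by 3 members, Kcns3, Kcng1 and Kcna6, against 6.05% of all genes. Kcns3, at -0.89, was the largest among members above 5 CPM.

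Cell type markers differed between the pairs as well. Nociceptor markers were higher in both first-pair libraries for 0 and in both second-pair libraries for 11 of 12 genes, with summed levels of 3709.96, 3728, 4750.4 and 4740.2 CPM in replicates 1 to 4, and pan-neuronal markers for 0 and 7 of 12, with 4784, 4844, 5051 and 5074 CPM. Large-diameter neuron markers, a list that holds Kcns1 itself, were higher in the first pair for 5 and in the second for 3 of 12, with 11216, 11188, 10977 and 10956 CPM. Skeletal muscle markers were higher in the first pair for 11 of 11 genes. Schwann cell markers were split, 4 of 10 each way. Macrophage markers summed to 532, 565, 497 and 509.7 CPM and were higher in the first pair for 6 of 7. Satellite glia, blood vessel and spinal cord markers summed to 9044 to 9240, 522 to 603 and 214 to 245 CPM, with Olig2 and Chat of the spinal cord list not detected. Most of the spinal cord sum was Slc17a6, a glutamate transporter gene also of sensory neurons, with 149, 148, 190.4 and 193 CPM. Of the 10 spinal cord genes, 4 were higher in the first pair and 2 in the second. The part of these shifts in the channel values was not tested.

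**Figure D4:**
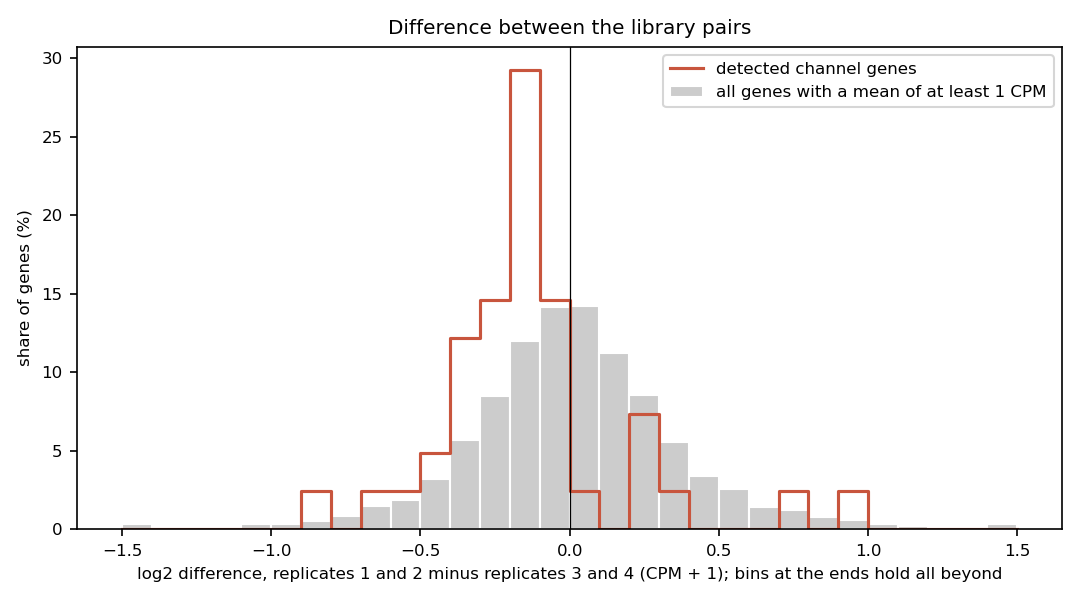
Share of genes (%) by log2 difference of replicates 1 and 2 minus replicates 3 and 4 (CPM + 1), for all detected genes (grey bars) and the 41 detected channel genes (line). The line peaks below 0, with a median of -0.15, and the grey bars centre on 0.00.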

How the data were processed

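Footprint libraries of 4 samples of 1 group were used. Ribosomes with their RNA were collected on columns and fragments of 28 to 34 nt kept after rRNA depletion, per the labels' protocols. The submitters' processing notes name Cufflinks 2.2.1, Bowtie2 2.2.9, TopHat2 2.1.1, FastQC 0.11.5 and the build GRCm38.p4. How reads were counted, whether strand was used and what became of multiply matching reads is not given in the sources used here. Columns deposited by the authors are named for TPM but hold CPM: each sums to 1000000, and 96.5% to 97.0% of values above 0 are whole multiples of 1 step per library, within 0.02 steps.

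Reads were value divided by step, rounded. Coding length is the longest basic coding sequence in GENCODE M21 (48052 IDs matched). Division by it takes all reads to be coding, which was not checked. Contrasts used log2(CPM per kb + 0.1), and list levels and pair differences log2(CPM + 1), on which folds of low genes are understated. P-values are exact sign-flip, Benjamini-Hochberg adjusted. Intervals are exact Poisson at 95% and cover counting error only. Every member was accounted for; library values are given for the 15 highest, the highest 2 per kb of each family, and contrast genes, except for some members and 4 of the 21 contrasts, which are not reported here. Members, lists and contrasts were chosen with earlier results of these data known. Recovery of read totals and contrasts was tested on simulated libraries of whole reads with Poisson noise and a shared profile. These lacked the fractional reads and the pair difference of the data, so recovery under those was not checked. Alternatives changed the minimum, pseudocount, length, denominator and libraries. Computation used scipy 1.17.1, numpy 2.4.6 and pandas 2.3.3 in Python 3.11.15, and plots matplotlib 3.10.9.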

Additional observations from a re-analysis of the deposited data

Results flagged for a closer look

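Of the 41 detected members, only Kcnd3 had 1 library set apart from the other 3 by most of the range, which about 1 in 20 groups of 4 show by chance. It was low in replicate 2, at 42.9 CPM, with 50.5, 49.4 and 49.6 CPM in replicates 1, 3 and 4.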

How the results depend on the processing

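The 17 reported contrasts kept their direction under both other pseudocounts, with protein-coding reads as the library total and without each replicate. Without division by length, summed KChIP over summed Kv4 turned to -1.16. With total exon length it turned to -0.50 and Kcnc4 over Kcnc1 to 0.50. Direction was kept in the other contrasts under both length settings, with changed sizes given beside the results. Modifier over Kv2 no longer went one way in all libraries without division by length (0.06). No gene-to-gene contrast had a member under 1 CPM, so leaving such contrasts out changed nothing; family sums include such members. The number of detected members was 26 with a minimum of 10 CPM, 49 with 0.1 and 37 with 1 CPM required in every library, and 41 to 42 without 1 replicate. Members with the second pair higher numbered 3 by a log2 difference of at least 0.5, against 19 by lack of overlap between the pairs. The 3 are not a part of the 19: Kcna6 reached the difference although its pairs overlapped. The median of the detected members, 17.1 CPM, was 21.7 with protein-coding reads as the total, 10.5 over all 52 members and 15.8 to 17.8 without 1 replicate. Levels of members under 10 CPM are limited by counting: their median coefficient of variation was 27.0%. No paired analysis was possible because there is 1 group.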
